A study of Mus musculus with 6 samples.

Results

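The genes of the cytosolic ribosomal proteins were followed in E14 mouse embryonic stem cells that lacked or carried Pml and had all been exposed to paraquat. Members were chosen by name: rows whose symbol is Rpl or Rps with a number (an added letter or digit allowed), together with Rpsa, Rplp0, Rplp1 and Rplp2, and without Rps27l and Rpl10l. This gave 82 of the 24421 genes in the table, 50 of the large and 32 of the small subunit. The rule used names and no measured value, but members were chosen with earlier results of these data known. A pattern of names also takes in 5 paralogs of restricted or less known function (Rpl3l, Rpl39l, Rpl22l1, Rpl7l1 and Rps4l) and leaves out Fau, whose ribosomal protein is made as a fusion with a ubiquitin-like protein.

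Both groups were E14 cells, an established male line, given 10 µM paraquat, a compound that generates superoxide by redox cycling, for 15 h. The wild-type group (genotype wild type, n = 2 libraries) was compared with the knockout group (genotype Pml-/-, n = 2 libraries). Pml encodes the scaffold of PML nuclear bodies. The medium of both groups held leukemia inhibitory factor, CHIR99021 (a GSK3 inhibitor) and PD0325901 (a MEK inhibitor). No untreated library was compared, so the values describe the knockout under paraquat and not the response to it. The sources used here do not say whether the knockout was 1 clone or whether cultures were separate, so the p-values here measure only the spread between these libraries, which may be technical.

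The cytosolic ribosome is built from a small subunit, which reads the mRNA, and a large subunit, which forms peptide bonds and releases the new chain through an exit tunnel. Each subunit holds ribosomal RNA and a set of proteins that are needed in nearly equal numbers, so their mRNAs are usually made in step. Most of these mRNAs begin with a C followed by a run of pyrimidines, the 5′ terminal oligopyrimidine (TOP) tract, through which mTORC1 and LARP1 control their translation. Embryonic stem cells divide fast and express this gene group strongly. Some free ribosomal proteins, above all Rpl5 and Rpl11, bind MDM2 and so link ribosome assembly to p53.

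Start sites are shown for the member that passed the test, Rpl39l, and for its X-linked counterpart Rpl39. They are also shown for 3 members whose knockout libraries lay far apart, and for 3 others with a pyrimidine run across the start. The run of Rpl39 also reaches across its start. Each stretch runs from 40 bases before a RefSeq transcript start to 20 bases from it (GRCm38.p6, the assembly of mm10), and the capitals mark the run of C followed by at least 4 pyrimidines that begins nearest to the start. The stretches are Rpl39l at chr16:10170188-10170247 (plus strand), Rpl39 at chrX:37085203-37085262 (minus), Rpl22l1 at chr3:28805468-28805527 (plus), Rps12 at chr10:23787190-23787249 (minus) and Rps23 at chr13:90923082-90923141 (plus). The other 3 are Rpl15 at chr14:18270967-18271026, Rps18 at chr17:33955646-33955705 and Rps6 at chr4:86857348-86857407, all on the minus strand. For Rpl39l and Rps12 the start in the promoter table lies 31 and 174 bases downstream of the outermost start of the gene record, and for the other 6 the starts coincide.
Rpl39l: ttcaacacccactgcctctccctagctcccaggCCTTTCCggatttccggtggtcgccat
Rpl39: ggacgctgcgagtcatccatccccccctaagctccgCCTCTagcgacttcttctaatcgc
Rpl22l1: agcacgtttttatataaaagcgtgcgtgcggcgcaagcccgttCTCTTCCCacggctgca
Rps12: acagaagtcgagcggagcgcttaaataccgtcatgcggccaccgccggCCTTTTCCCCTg
Rps23: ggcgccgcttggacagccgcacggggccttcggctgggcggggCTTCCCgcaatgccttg
Rpl15: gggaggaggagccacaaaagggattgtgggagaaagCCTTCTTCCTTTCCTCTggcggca
Rps18: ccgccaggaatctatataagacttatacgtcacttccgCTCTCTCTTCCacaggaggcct
Rps6: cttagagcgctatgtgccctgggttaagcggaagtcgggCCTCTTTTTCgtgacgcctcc

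RefSeq promoters (250 bases before to 50 after a start) were found for 61 of the 82 members, with 72 start sites. A C at the first base with 4 pyrimidines after it, read on the transcribed strand, stood at 13 of the 72 starts (18.1%), against 2.51% of all 32851 starts and 2.4% of the 12368 starts of genes tested. With the run allowed to begin up to 5 bases to either side, the share was 41.7% of member starts, against 18.3% of all starts and 19.7% of starts of tested genes. Starts were not mapped in these cells, so these are shares of annotated starts and not of mRNAs with a TOP tract. Of motifs searched on both strands across the 300 bases, CCGGAAG, the core of ETS factor sites, was in 36.1% of member starts (8.86% of all, 17.1% of tested genes). AAGATGGCG, part of the YY1 motif, was in 8.33% (1.4% and 2.97%). The E-box CACGTG was in 11.1% (7.15% and 10.1%) and TATAAA in 9.72% (13.6% and 6.83%). At 0 member starts did CCGGAAG and AAGATGGCG share bases.

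Libraries held 31384794 to 44130093 reads counted in genes, so 1 CPM (1 read per 1000000) was 31 to 44 reads. Pml was at 238 and 228 CPM (wild type) against 78.7 and 89.7 CPM (knockout). All 8 embryonic stem cell markers were detected, with summed levels of 6723 and 6837 CPM (wild type) against 6891 and 6903 CPM (knockout), and 7 fibroblast markers summed to 5.82 to 7.58 CPM, with Dcn at 0 in every library. Of the stem cell markers Zfp42 was called lower and Tfcp2l1 higher in the knockout, and 9 markers of differentiating cells summed to 28.3 and 29.1 CPM (wild type) against 22.3 and 25.5 CPM (knockout). Of these 9, 3 were tested and Sox1 was called lower, at 19.2 and 20.5 CPM against 14.1 and 14.6 CPM (limma adjusted p = 0.0105). Sox1 made up most of the summed level. Gata4 and Pax6, also tested, had log2 fold changes of 0.19 and 0.049 and did not pass. The part of these markers in the results was not tested. Library kit entries in the labels differ: both libraries numbered 1 carry an RNA kit, wild-type library 2 a DNA kit alone, and knockout library 2 both kits. The part of library preparation in the values was not tested. The test covered 12710 genes averaging 1 CPM or more, of which 687 (5.41%) passed an adjusted p of 0.05 (limma on log2(CPM + 1), Benjamini-Hochberg over all genes tested). In bulk RNA, fewer cells of a type and less RNA per cell cannot be told apart.

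Of the ribosomal protein genes 81 of 82 were tested, and 1 passed, Rpl39l, which was lower in the knockout. That is 1.23% of the members tested, beside 5.41% of all genes (3.45% lower and 1.95% higher), and 0 members were called higher. The other 80 values did not pass, and 19 of the 81 (23.5%) had an unadjusted p under 0.05, against 19.3% of all genes tested. The small subunit gave 0 calls among 32 (limma, 7 at an unadjusted p under 0.05; 0 also with edgeR and with DESeq2) and the large subunit 1 among 49. Rpl39l was also the 1 member called by edgeR (background 4.19%) and by DESeq2 (2.59%) on reads recovered from the CPM. The DESeq2 share is over all 18761 genes with any read, low ones included. The count moved with the libraries: with wild-type library 1 left out 5 members were called (background 3.46%), with wild-type library 2 left out 4 (6.83%). Omitting knockout library 1 gave 16 (5.27%), and omitting knockout library 2 gave 2 (2.89%). With a library left out, its group is 1 library that is assumed to vary like the pair of the other group, and without a knockout library that pair is the wild-type one, whose members lay closer together. Of the 16, 14 were lower and 2 higher, Rps12 and Rps13. The authors' deposited table, at a false discovery rate under 0.05, also held 1 of the 82 members, Rpl39l. The share over its 24421 genes was 3.8%, with 5660 of them at 0 in every library.

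**Figure D1:**
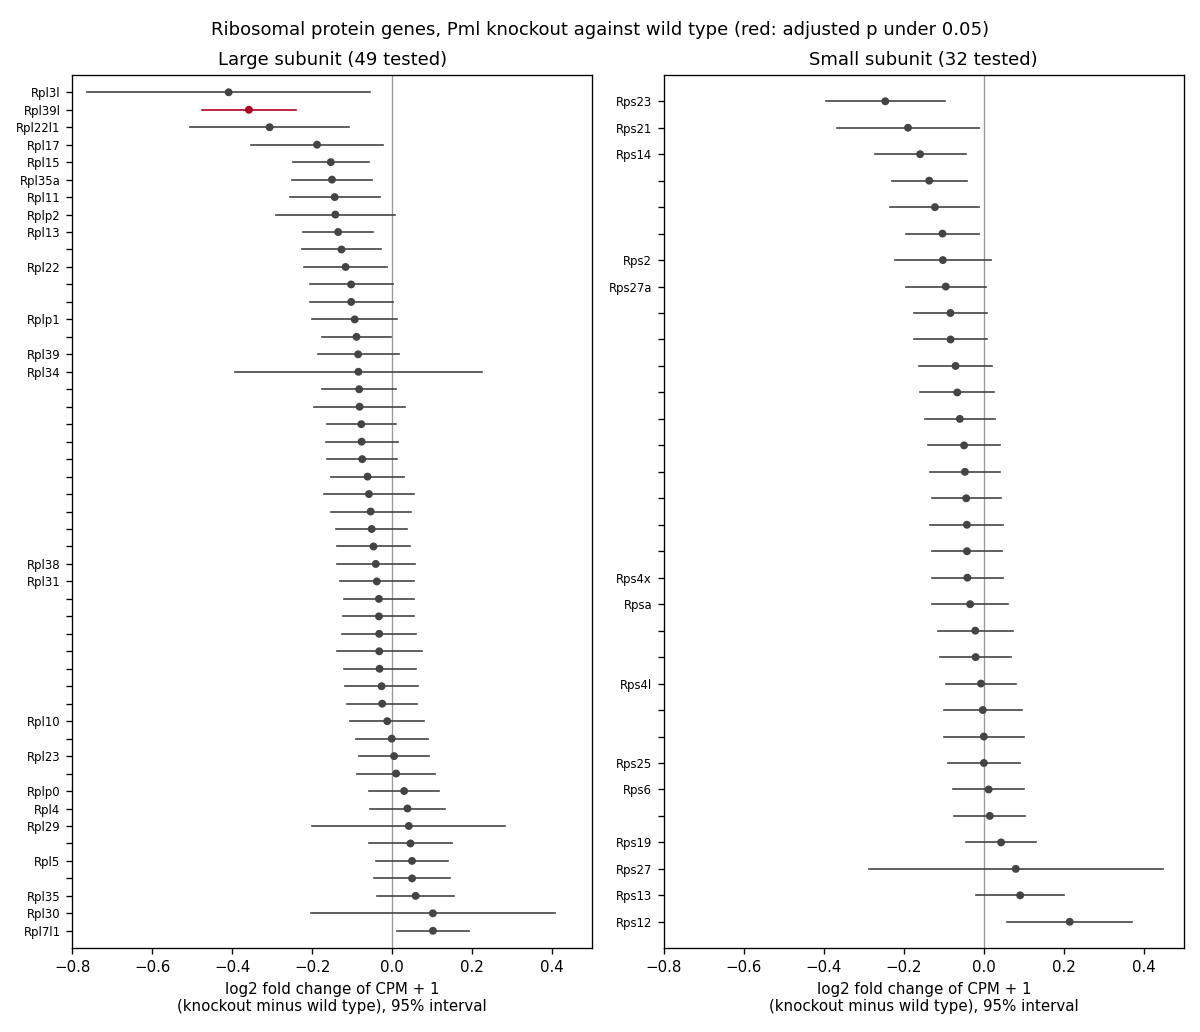
Log2 fold change of CPM + 1 (knockout minus wild type, x axis) with its 95% limma interval for the 81 tested members (y axis, with names for those described in the text), large subunit left and small subunit right. Rpl39l, in red, is the member with an adjusted p under 0.05, and most points lie slightly left of 0.

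Rpl39l encodes a paralog of Rpl39, a short protein of the exit tunnel, and is best known from male germ cells. The gene lies on chromosome 16 from 10170197 to 10174911 (mm10). Its level was 90.5 and 94.4 CPM in the wild-type libraries and 73.3 and 70.5 CPM in the knockout libraries. Both knockout libraries were below both wild-type ones, and replicates of a genotype lay close together. The mean was 92.5 ± 2.80 CPM for wild type against 71.9 ± 2.01 CPM for the knockout (SD, n = 2 each), so the level fell by 22.2%, with a log2 fold change of -0.36 (SE 0.055, limma adjusted p = 0.0014). The 95% interval of the change ran from 0.719 to 0.847 of the wild-type level. It passed without each library in turn. Of the 10 tested genes nearest to it on the chromosome, within 789.1 kb, 0 passed (limma), and their log2 fold changes ran from -0.41 to 0.074 with a median of -0.072.

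Rpl39 itself, on chromosome X from 37082518 to 37085222, was at 151 and 156 CPM (wild type) against 145 and 145 CPM (knockout). These groups did not overlap either, but the difference was small (log2 fold change -0.085, limma adjusted p = 0.357). Reads on Rpl39l per read on Rpl39 were 0.598 and 0.604 in the wild-type libraries and 0.505 and 0.488 in the knockout libraries. The ratio was therefore lower in both knockout libraries, at 0.496 ± 0.012 against 0.601 ± 0.0038 (SD, n = 2 each), and 2 against 2 libraries cannot give an exact permutation p below 0.05. Counting per gene does not correct for transcript length, so this ratio describes a shift between libraries and not the share of either protein. The counting of reads that match both copies is not described in the labels or the file.

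The other 4 paralogs did not pass, and their values went different ways. Rpl22l1, paralog of the RNA-binding protein gene Rpl22, was at 69.2 and 70.4 CPM (wild type) against 64.8 and 48.9 CPM (knockout). The low mean of the knockout came mostly from its second library (log2 change -0.31, with SE 0.093 and limma adjusted p = 0.0711). The call appeared without any one of 3 libraries (knockout library 1, adjusted p = 0.000436; wild-type library 1, 0.00926; wild-type library 2, 0.0134) and not without knockout library 2, so it rests on that library. Rpl22 was at 499 and 495 CPM against 482 and 437 CPM. Rpl3l, a paralog of Rpl3 known from striated muscle, had the most negative log2 fold change of the tested members, -0.41 (SE 0.17, adjusted p = 0.186), at 2.77 and 2.54 CPM against 1.49 and 2.04 CPM. These levels rest on 57 to 112 reads a library.

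Rpl7l1, a nucleolar relative of Rpl7, was at 329 and 330 CPM (wild type) against 353 and 355 CPM (knockout). The groups did not overlap, and the difference of 0.10 on the log2 scale did not pass (limma adjusted p = 0.193). Rps4l, which RefSeq lists as a transcribed pseudogene and which stood at 574 and 566 CPM against 563 and 571 CPM, overlapped between groups. The 95% interval of its change ran from 0.937 to 1.06 of wild type. Its intact relative Rps4x, on chromosome X, was at 976 and 946 CPM against 942 and 925 CPM.

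**Figure D2:**
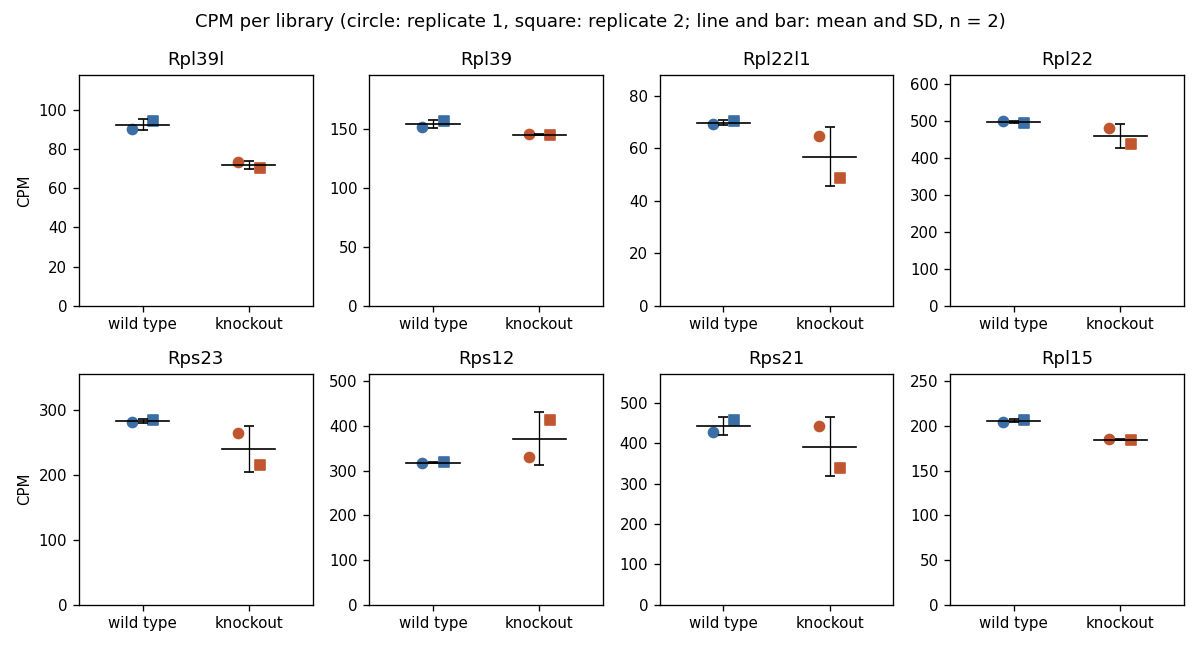
CPM (y axis, from 0) of 8 members in the 2 wild-type and 2 knockout libraries, with circles for replicate 1, squares for replicate 2, and the mean and SD. Rpl39l is lower in both knockout libraries, while Rpl22l1, Rps23, Rps21 and Rps12 owe most of their difference to knockout library 2.

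The 95% interval lay within 1.25-fold either way for 71 of the 81 tested members (87.7%, against 60.8% of all genes tested). Among genes averaging 100 CPM or more the shares were alike, 95.9% of 73 members and 94.8% of 2519 other genes. The 10 exceptions were Rpl39l, Rpl22l1, Rps12, Rps21, Rps23 and Rpl17, and the members with few reads Rpl3l, Rps27, Rpl30 and Rpl34. The median log2 fold change over the members was -0.047, beside -0.0029 over all genes, with -0.043 for the small and -0.054 for the large subunit. Values were below 0 for 62 of 81 members (76.5%, against 51.0% of all genes). Both knockout libraries were below both wild-type libraries for 44 of 81 (54.3%, against 25.5%) and above them for 7 (8.64%, against 23.8%). The 7 were Rpl5, Rpl35, Rpl7l1, Rplp0, Rps12, Rps13 and Rps19. With 1 knockout library at a time, 55 members lay below both wild-type libraries in knockout library 1 (background 36.8%) and 54 in knockout library 2 (background 40.7%). Members share each library's scaling and composition, so these counts are not independent observations.

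Summed over all members, the level was 48163 and 47626 CPM (wild type) against 47005 and 45819 CPM (knockout), or 4.82% and 4.76% of reads against 4.70% and 4.58%. Large subunit genes made up 27686 and 27329 CPM (wild type) against 26962 and 26436 CPM (knockout). Small subunit genes made up 20477 and 20296 CPM against 20043 and 19382 CPM. In each sum both knockout libraries were below both wild-type ones, and the knockout libraries lay farther from each other than the wild-type libraries did.

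**Figure D3:**
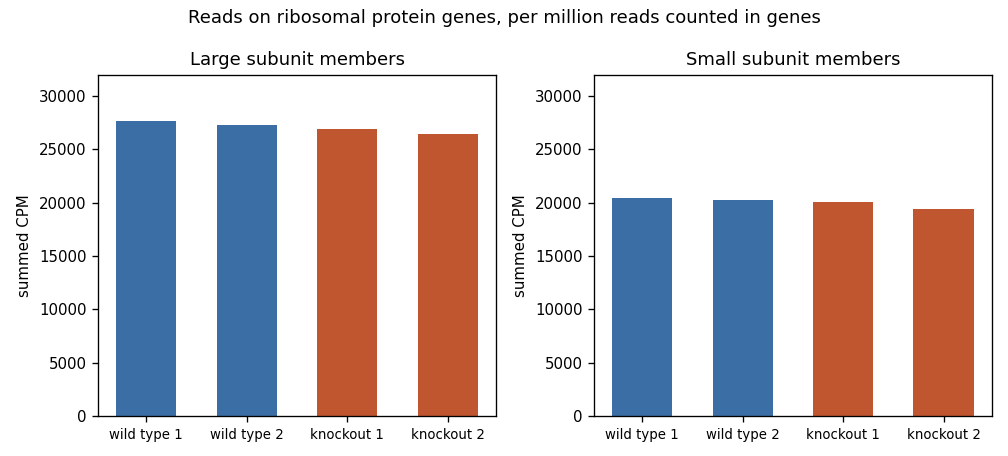
Summed CPM (y axis, from 0) of large subunit members (left) and small subunit members (right) in each library, wild type blue and knockout orange. The large subunit sums run from 27686 CPM in wild-type library 1 to 26436 CPM in knockout library 2, and the small subunit sums from 20477 to 19382 CPM.

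Knockout library 2 stood apart from the other 3 for a set of these genes. The median absolute difference between replicates was 0.021 on the log2 scale in wild type and 0.061 in the knockout for members, against 0.075 and 0.082 for all genes tested. Among genes averaging 100 CPM or more it was 0.019 and 0.059 for members and 0.040 and 0.054 for the others, so members lay closer together in wild type and slightly farther apart in the knockout. Knockout replicates differed more than wild-type replicates for 59 of 81 members (72.8%) and for 52.3% of all genes. Knockout replicates lay over 0.2 apart for 8 members. Rpl22l1, Rps21, Rplp2, Rps23 and Rps2 were lower in knockout library 2, and Rpl30, Rpl3l and Rps12 were higher there. Rpl3l was at 2.77 and 2.54 CPM (wild type), so knockout library 1 (1.49 CPM) lay farther off than knockout library 2 (2.04 CPM). Rpl30 had 126 to 225 reads a library, and its wild-type replicates lay 0.18 apart. Wild-type replicates lay over 0.2 apart only for Rpl34, which had 3.78 to 4.65 CPM in the 4 libraries. The share of all genes beyond this limit was not counted, so these members are not set against a background. Library 2 of the knockout was the lowest of the 4 for 47 members (58.0%, against 29.6% of all genes tested) and wild-type library 1 the highest for 44 (54.3%, against 31.1%).

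**Figure D4:**
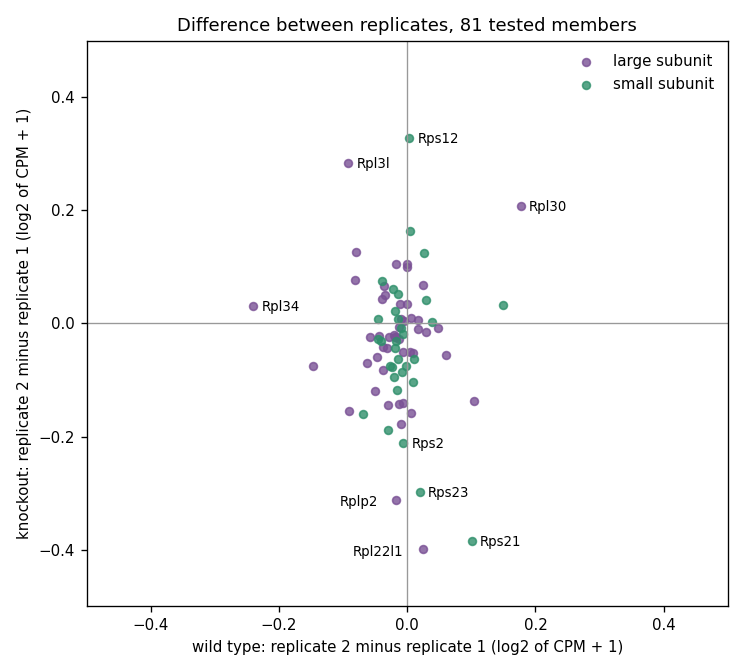
Difference between replicate 2 and replicate 1 on the log2(CPM + 1) scale, wild type on the x axis and knockout on the y axis, for the 81 tested members. Points spread more along the knockout axis, with Rps12 high and Rpl22l1, Rps21, Rplp2 and Rps23 low in knockout library 2.

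Among small subunit genes, the lowest adjusted p was that of Rps23, a protein of the decoding centre. It was at 280 and 284 CPM (wild type) against 264 and 214 CPM (knockout) (log2 change -0.25, with SE 0.070 and limma adjusted p = 0.0527). Rps12, a protein of the small subunit head, went the other way, with 318 and 319 CPM (wild type) against 330 and 414 CPM (knockout) (0.21, SE 0.073, adjusted p = 0.11). For both genes the wild-type libraries lay close together, and most of the difference came from knockout library 2. Both passed when any one of the other 3 libraries was left out (lowest adjusted p = 8.97e-05 for Rps23 and 7.24e-05 for Rps12, without knockout library 1). Neither passed without knockout library 2. Rps21 was at 427 and 458 CPM against 443 and 339 CPM, and its groups overlapped.

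Rps6, whose protein is the classic substrate of S6 kinase, was at 485 and 495 CPM (wild type) against 487 and 501 CPM (knockout). Rps19, the gene most often mutated in Diamond-Blackfan anaemia, was at 513 and 508 CPM against 525 and 527 CPM. Rpsa, which also serves as a laminin receptor, was at 985 and 991 CPM against 999.9 and 931 CPM. Rps27a, made as a fusion with ubiquitin, was at 223 and 222 CPM against 215 and 202 CPM. None of these 4 passed (lowest limma adjusted p = 0.285, for Rps27a), and for Rps6 the interval of the change ran from 0.948 to 1.07 of wild type. Rps25, which acts in initiation from internal ribosome entry sites, had a log2 fold change of 0.0003 (adjusted p = 0.998).

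In the large subunit, the genes of the 5S particle and MDM2 binding gave no call among 3, beside 5.41% of all genes tested. At that share, role groups as small as this and those below hold few or no calls, so their counts are not results about the roles. Rpl5 was at 545 and 534 CPM (wild type) against 567 and 550 CPM (knockout), above wild type in both libraries (limma adjusted p = 0.573). Rpl11, its partner, was at 418 and 393 CPM against 387 and 348 CPM, below wild type in both (adjusted p = 0.139, and 0.0119 without knockout library 1). Rpl23 was at 499 and 496 CPM against 497 and 500.5 CPM. The pair that binds MDM2 with the 5S RNA thus showed opposite order, and neither difference passed.

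The P stalk, which recruits elongation factors, gave 0 of 4 (lowest limma adjusted p = 0.286), beside 5.41% of all genes tested. Rplp0, its base, was at 1169 and 1159 CPM (wild type) against 1200.2 and 1177 CPM (knockout). Rplp1 was at 1022 and 1027 CPM against 1015 and 909 CPM, and Rplp2 at 708 and 699 CPM against 710.1 and 572 CPM. Knockout library 1 was thus near wild type for both and knockout library 2 below it. Both passed without knockout library 1 (adjusted p = 0.0119 and 0.00028), where the test takes its spread from the wild-type pair alone.

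Exit tunnel and exit site genes gave 0 of 6 (limma, lowest adjusted p = 0.192), beside 5.41% of all genes tested. This list holds Rpl39 but not its paralog Rpl39l, the member that passed. Rpl4, which lines the tunnel, had the most reads of any member, 2860 and 2792 CPM (wild type) against 2852 and 2953 CPM (knockout). Of 5 tested genes for proteins of the decoding site and mRNA channel, 0 passed (5.41% of all genes tested), with a median of -0.066. Among 19 genes mutated in human Diamond-Blackfan anaemia, 18 were tested, 0 passed (5.41% of all genes tested), and the median was -0.048. Of these, Rpl15, a protein of the large subunit core, had the lowest adjusted p (0.0608). It was at 205 and 207 CPM (wild type) against 186 and 184 CPM (knockout), so its replicates lay close together and the groups apart (log2 fold change -0.15, SE 0.045).

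Rpl35a gave a similar picture, at 182 and 175 CPM against 162 and 159 CPM (limma adjusted p = 0.0795). Rpl10, linked to autism and T cell leukaemia, was at 257 and 252 CPM against 254 and 250.1 CPM, and Rpl38, needed for translation of Hox mRNAs, at 196 and 197 CPM against 195 and 188 CPM. Rps14, the gene of the 5q- syndrome, was at 900.02 and 882 CPM against 851 and 747 CPM (adjusted p = 0.103, and 0.00101 without knockout library 1). Rpl13 was at 798 CPM in both wild-type libraries and at 718 and 736 CPM in the knockout (adjusted p = 0.071). It passed without knockout library 2 (adjusted p = 0.0437), where Rpl39l and Rpl13 were the 2 members called, beside 2.89% of all genes.

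Rpl13 lies on chromosome 8, where 651 tested genes that are no members had a median log2 fold change of -0.059. On the other 18 chromosomes with members, the medians of the other genes ran from -0.019 to 0.026. The part of that chromosome in the value of Rpl13 was not tested. Chromosome 7 held 14 members, the most of any, with a median of -0.049 beside 0.0048 for its other genes.

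Few reads were counted for several members, although the proteins are parts of every ribosome. Rpl26 was not tested, since the wild-type libraries held 5 and 3 of its reads and the knockout libraries 1 and 9. Rps27 was at 1.15 and 1.38 CPM against 1.36 and 1.42 CPM, Rpl34 at 4.65 and 3.78 CPM against 3.85 and 3.96 CPM, Rpl30 at 4.01 and 4.67 CPM against 4.32 and 5.15 CPM, and Rpl29 at 9.34 and 10.1 CPM against 10.6 and 9.52 CPM. RefSeq names 6 pseudogenes after Rpl26, 2 after Rps27, 1 after Rpl34, 10 after Rpl30 and 5 after Rpl29. The treatment of reads matching several loci is not described in the labels or the file, and the part of that treatment in these low counts was not tested. Rps12 and Rpl31 have 23 named pseudogenes each and averaged 345 and 324 CPM over the 4 libraries.

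Of the ribosomal protein genes that the name rule leaves out, 7 were tested and 0 passed (limma, 5.41% of all genes tested), with a median of -0.068. An unadjusted p under 0.05 was found for 2 of the 7 (19.3% of all genes tested). Fau was at 451 and 475 CPM (wild type) against 472 and 484 CPM (knockout) and Gnb2l1 (Rack1), the signalling scaffold of the small subunit, at 1751 and 1766 CPM against 1752 and 1605 CPM. Gnb2l1 too passed without knockout library 1 (adjusted p = 0.0374), since knockout library 2 alone was low.

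Genes that make ribosomes had medians above 0, unlike the ribosomal proteins. The 2519 other genes averaging 100 CPM or more also had a median above 0 (0.0091). Among those 2519, both knockout libraries were above both wild-type libraries for 30.0% and below them for 23.7%. Of 68 tested ribosome biogenesis genes 0 passed (limma, against 5.41% of all genes tested), and 13 had an unadjusted p under 0.05 (19.3% of all genes tested). Both knockout libraries were above both wild-type libraries for 30 (44.1%, against 23.8% of all genes tested) and below them for 7 (10.3%, against 25.5%). The median was 0.033, and the list summed to 14092 and 14126 CPM (wild type) against 14664 and 14539 CPM (knockout). Ncl, the nucleolar protein nucleolin, was at 2545 and 2534 CPM against 2777 and 2784 CPM (log2 fold change 0.13, limma adjusted p = 0.0902, and 0.0312 with DESeq2). Fbl, the methyltransferase of ribosomal RNA, was at 210 and 208 CPM against 210 and 213 CPM. Of 20 genes of RNA polymerase I and its factors 0 passed and 5 had an unadjusted p under 0.05 (limma), beside the same shares of all genes. Their median was 0.0095. The difference between these lists and the members was not tested.

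A list of other RNAs known for a TOP tract, mostly mRNAs of translation factors, gave 1 call among 23 and a median of 0.012. Beside this, 5.41% of all genes tested were called. The list includes the noncoding RNAs Gas5, Snhg1 and Snhg8, and the tract was not checked here for each gene. The call was Vim, an intermediate filament gene, which fell from 317 ± 2.52 to 277 ± 15.4 CPM (SD, n = 2, limma adjusted p = 0.026), and it did not pass when wild-type library 1, wild-type library 2 or knockout library 1 was omitted (adjusted p up to 0.0859), or with edgeR (0.0523). Eef1a1, the main elongation factor gene, was at 9120 and 9029 CPM against 8864 and 9273 CPM, and Eef2 at 4250 and 4176 CPM against 4484 and 4332 CPM. Npm1, a nucleolar chaperone, was at 2605 and 2635 CPM against 2645 and 2919 CPM, again with knockout library 2 apart.

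Among 19 genes of MYC and mTORC1 control 1 passed, beside 5.41% of all genes tested. Deptor, an inhibitor of mTOR, fell from 113 ± 0.71 to 95.7 ± 5.02 CPM (SD, n = 2, log2 fold change -0.24, limma adjusted p = 0.0178). It no longer passed when wild-type library 1 (adjusted p = 0.0636) or knockout library 1 (0.0785) was left out. Myc was at 13.4 and 10.2 CPM (wild type) against 8.15 and 8.97 CPM (knockout) (adjusted p = 0.0844) and passed without wild-type library 2 (adjusted p = 0.00278). Mycn was at 147 and 155 CPM against 156 and 154 CPM, Mtor at 117 and 139 CPM against 130 and 126 CPM, and Larp1, the TOP-binding repressor, at 575 and 589 CPM against 616 and 650 CPM. Of 31 other initiation, elongation and release factor genes 1 rose (5.41% of all genes tested passed). Eif4g3 went from 60.6 ± 3.11 to 72.9 ± 2.56 CPM (limma adjusted p = 0.0198). It no longer passed when wild-type library 1 or knockout library 2 was left out.

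Of 16 genes that sense or clear stalled ribosomes, 1 fell and 1 rose, with a list median of 0.014. Over all genes tested 3.45% were called lower and 1.95% higher. Zak, the kinase that starts the ribotoxic stress response on collided ribosomes, stood at 41.7 and 41.8 CPM (wild type) against 30.7 and 31.0 CPM (knockout). Its groups lay far apart relative to their spread, and it fell to 30.9 ± 0.23 from 41.8 ± 0.016 CPM (SD, n = 2, log2 fold change -0.42, limma adjusted p = 0.00209). The call held without each library in turn. Usp10, a deubiquitinase of small subunit proteins, rose from 267 ± 0.90 to 298 ± 4.80 CPM (adjusted p = 0.0444), but not when wild-type library 1, wild-type library 2 or knockout library 2 was omitted (adjusted p up to 0.196). TMM scaling (0.0593) and edgeR (0.0646) did not call it either.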

How the data were processed

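RNA sequencing values of 4 libraries were used. Cutadapt, TopHat, edgeR and mm10 are named in the submitters' processing notes. The sources used here give no versions, annotation, strand or treatment of multiply matching reads. The authors deposited CPM values, log2 fold changes with mean log2 CPM, and p-values with false discovery rates. CPM divided by the value of 1 read was whole for 100% of entries (tolerance 0.001 reads). For CPM, limma 3.58.1 in R 4.3.3 was fitted to log2(CPM + 1) over genes averaging 1 CPM or more, with genotype alone, over the 4 libraries, at an adjusted p of 0.05. This scale understates changes of low genes. Alternatives included TMM scaling, edgeR 4.0.16 (quasi-likelihood) and DESeq2 1.42.0 on the recovered reads. Scripts were tested on simulated data. Named members were those past the threshold, the 10 with the largest changes, the 5 highest and 5 lowest by CPM, any under the filter, and a list of known roles. Named context genes were the called ones and a short list. Rpl13, Rpl29, Rpl31, Rpl35, Rps2 and Rps13 were chosen after their values were seen. Members and lists were chosen with earlier results of these data known. All 82 members matched RefSeq symbols (GRCm38.p6). The table held 0 other columns of per-sample values. Some genes are not reported here. The ALaP chromatin samples were not analysed here.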

Additional observations from a re-analysis of the deposited data

How the results depend on the processing

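The call of Rpl39l was kept under all 12 alternatives, with log2 fold changes of -0.39 to -0.33 and adjusted p from 3.57e-05 to 0.0115. The count of members called was 1 under both other scalings, the other pseudocount, both other filters, edgeR and DESeq2. Leaving out 1 library gave 2 to 16 members (0 to 8 of the small and 2 to 8 of the large subunit). The 16 were found without knockout library 1, 14 lower and 2 higher, beside 5.27% of all genes called there. The median log2 fold change of the members ranged from -0.066 to -0.035 over these omissions and stayed below 0 under every alternative. Over all genes, 367 to 869 were called with 1 library left out, 298 when low genes were kept and 1198 with a replicate block. With that block 8 of the 81 tested members passed, a share close to that of all genes (1198 of 12710). The 8 were 3 of the small subunit (Rps23, Rps14, Rps12) and 5 of the large (Rpl39l, Rpl22l1, Rpl15, Rpl35a, Rpl11). Deviations of same-numbered libraries correlated at 0.12 over 12710 genes, and with 2 pairs the numbers are not shown to pair samples. In the 7 lists of other ribosome and translation genes 5 genes were called, with 1 under no filter, 3 with edgeR, 9 with the block and 2 to 13 with 1 library left out. Of 452 values of 38 named members under the alternatives, 427 kept their side of the threshold and 25 newly passed it, 0 reversed. This count leaves out Rps18 and the members chosen after their values were seen, of which some also newly passed with a library left out. Causes of these changes were not tested. Depth limits Rpl26, Rps27, Rpl3l, Rpl30 and Rpl34, which had 1 to 225 reads a library.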
